A study of Caenorhabditis elegans with 2 samples.

Results

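Aminoacyl-tRNA synthetases are the enzymes that join each amino acid to its own transfer RNA (tRNA) before the ribosome can use it. Their genes are named in C. elegans by the one-letter code of the amino acid, followed by ars and a number. The genes described here are all nuclear protein-coding genes of the WBcel235 reference whose name is one letter followed by ars-1 or ars-2. There are 31 of them among 19973 nuclear protein-coding genes, 20 with the suffix -1 and 11 with the suffix -2. The rule used only gene names and no peak values, but it was set with earlier results of these data known.

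The peaks come from chromatin immunoprecipitation followed by sequencing (ChIP-seq), which lists the places in the genome where DNA came down with a chosen protein. The protein was Y53G8AR.9, annotated with a CCCH zinc finger, a fold found in many RNA-binding proteins. Strain RW12264 carries a TY1, EGFP and 3xFLAG tag inserted by CRISPR at Y53G8AR.9 on chromosome III, and its chromatin was precipitated with an antibody against GFP. Whole young adults of 64 hours were used, synchronised by starving the L1 larvae that followed bleaching, and the 2 biological replicates form 1 group that shares this genotype and treatment. There is no second condition, and untagged or input samples were not analysed here. Whole animals were pooled, so strong binding in few cells and weak binding in many cannot be told apart.

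Nuclear genes encode the synthetases of both the cytosol and the mitochondria. In this family the suffix -1 usually marks the cytosolic enzyme and -2 the mitochondrial one, but some synthetase genes serve both compartments, as the human glycine and lysine enzymes do. For 11 amino acids the naming rule gave both a -1 and a -2 gene, and for 9 a -1 gene alone. The RefSeq product names carried the suffix only in part: 9 of the 20 -1 genes were named cytoplasmic and 3 of the 11 -2 genes (ears-2, pars-2 and rars-2) mitochondrial. For alanine the product names ran the other way, with aars-1 named mitochondrial and aars-2 cytoplasmic. Counts below follow the suffix. Synthetases also fall into a pair of classes with unrelated catalytic folds, and 15 of the genes belong to class I and 16 to class II.

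A gene was counted at its start when the summit of a peak on the conservative list, which the authors thresholded on the agreement of the replicates' peak ranks, lay within 500 bp of one of its annotated transcript starts. It was counted past its end when a summit lay 1 to 300 bp downstream of its 3′ end. By these counts 3 of the 31 genes (9.68%) had a summit at the start, against 6.5% of all coding genes, and 3 of 31 (9.68%) had one past the end, against 4.55% of all coding genes. No gene had both, so 6 of 31 (19.4%) had a summit in either zone, against 9.48% of all coding genes. The genes with a start summit were ears-2, dars-1 and gars-1, and those with a summit past the end were kars-1, sars-1 and cars-1. At starts the share of all coding genes would amount to about 2 of 31 genes, so 3 is a single gene more.

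The DNA under 5 of these 6 summits is shown because the places differ in kind: a shared gap between promoters, the inside of genes, and the ground behind genes. Each line holds 101 bases of the WBcel235 genome (RefSeq assembly) centred on the summit and is written on the strand of the synthetase gene. The 11 bases in capitals are those centred on the summit.
ears-2: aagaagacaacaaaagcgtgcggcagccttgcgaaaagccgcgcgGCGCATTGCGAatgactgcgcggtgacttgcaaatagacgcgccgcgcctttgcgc
dars-1: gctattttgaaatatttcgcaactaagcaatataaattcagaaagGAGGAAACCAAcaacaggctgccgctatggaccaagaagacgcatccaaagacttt
gars-1: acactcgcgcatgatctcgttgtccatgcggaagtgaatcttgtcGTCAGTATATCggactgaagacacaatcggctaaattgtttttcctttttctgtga
kars-1: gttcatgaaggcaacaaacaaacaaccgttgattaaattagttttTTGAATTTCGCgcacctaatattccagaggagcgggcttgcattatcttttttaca
sars-1: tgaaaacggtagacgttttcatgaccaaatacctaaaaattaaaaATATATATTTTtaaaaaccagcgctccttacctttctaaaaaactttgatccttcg

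The windows ran over a wide range of base composition. The ears-2 window was 60.4% GC, and it held 15 CG dinucleotides where the median window of the 2742 conservative peaks held 5. Only 0.62% of conservative windows held as many or more CG dinucleotides, and 3.72% had as high a GC share or higher. The windows were 39.6% GC at dars-1, 43.6% at gars-1, 36.6% at kars-1 and 29.7% at sars-1, where the bases around the summit are nearly all A and T. The median over all conservative windows was 44.6% GC, with quartiles of 38.6% and 51.5%. The 6 summits therefore share no common base composition.

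The strongest of the 6 peaks was at ears-2 (WBGene00001338), whose product is annotated as the mitochondrial glutamyl-tRNA synthetase. The peak spanned IV:390334-390653 with its summit at position 390494, in intergenic sequence 26 bp upstream of the ears-2 start. Its signal was 130 with both replicates together, and 79.0 in replicate 1 and 44.7 in replicate 2 in their own lists. The signal is the authors' own height of a peak on an unstated scale, and it ranks peaks within a list only. The peak ranked 343 of 2742 on the conservative list and was the only one of the 6 that overlapped a thresholded peak in both replicates' own lists. Over the series 798 peaks (29.1%) did so, and 1162 (42.4%) overlapped one in neither.

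The ears-2 summit also lay 66 bp from the start of uncp-18, which runs the other way. The annotated product of this neighbour is a syntaxin-binding protein, and only 91 bp separate the starts of the genes. In the printed window the ears-2 transcript begins at base 77. A peak of 320 bp covers both starts, so the data do not tell which promoter the signal belongs to.

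At dars-1 (WBGene00001094), the cytosolic aspartyl-tRNA synthetase, the peak lay at III:9490787-9491106. The summit, at position 9490947, was 268 bp downstream of the start, in the coding sequence of the gene. Its signal was 65.8 with both replicates together, and 44.5 in replicate 1 and 32.9 in replicate 2. The peak carried the maximum score of 1000, a whole-number form of the irreproducible discovery rate (IDR), and ranked 1582. Neither replicate's own thresholded list held it. The window contains TATAAA upstream of the capitals, a string that 5.73% of conservative windows hold. The divergent neighbour ctr-9, a subunit of the PAF complex of transcription elongation, starts 449 bp from the summit and 180 bp from the start of dars-1.

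The third start summit belonged to gars-1 (WBGene00001744), the glycyl-tRNA synthetase, which has no -2 partner in this set. The peak at III:5163255-5163574 had its summit at position 5163415, in an intron 212 bp downstream of the start. The signal was 57.5 with both replicates together, and 27.9 in replicate 1 and 28.8 in replicate 2, the closest values of the 6. Its score of 878 was the lowest of the 6, it ranked 2003, and it was absent from the other series-wide thresholded list and from both replicates' thresholded lists. T10F2.2, a mitochondrial ornithine transporter gene on the same strand, ends 344 bp before the summit.

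The 3 genes with a summit past the end all carry the suffix -1. At kars-1 (WBGene00002238), the lysyl-tRNA synthetase, the peak at II:7069934-7070253 had its summit at position 7070094, 89 bp past the gene's end. This point lies between genes and is also 128 bp upstream of the start of him-14, a MutS homolog of meiotic recombination on the same strand, so the peak counts for both genes. The signal was 50.6 with both replicates together, and 33.2 in replicate 1 and 24.99 in replicate 2, with a score of 914 and a rank of 2294.

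At sars-1 (WBGene00005663), the cytosolic seryl-tRNA synthetase, the peak at IV:10005545-10005864 had its summit at position 10005705, 127 bp past the end. It had a signal of 55.1 with both replicates together, and 42.2 in replicate 1 and 27.7 in replicate 2, with a score of 1000 and a rank of 2127. Replicate 1's own thresholded list held it and replicate 2's did not. C47E12.13, an uncharacterised gene on the opposite strand, overlaps the end of sars-1, and the summit falls in one of its introns.

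The last was cars-1 (WBGene00000800), the cytosolic cysteinyl-tRNA synthetase. Its peak on chromosome I, at I:2622772-2623091, had its summit at position 2622932, 167 bp past the end and in the coding sequence of Y23H5A.2 on the opposite strand. The signal was 49.3 with both replicates together, and 31.2 in replicate 1 and 28.5 in replicate 2, with a score of 964 and a rank of 2335. Its window was 50.5% GC and held CACGTG, the E-box string present in 3.68% of conservative windows.

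**Figure D1:**
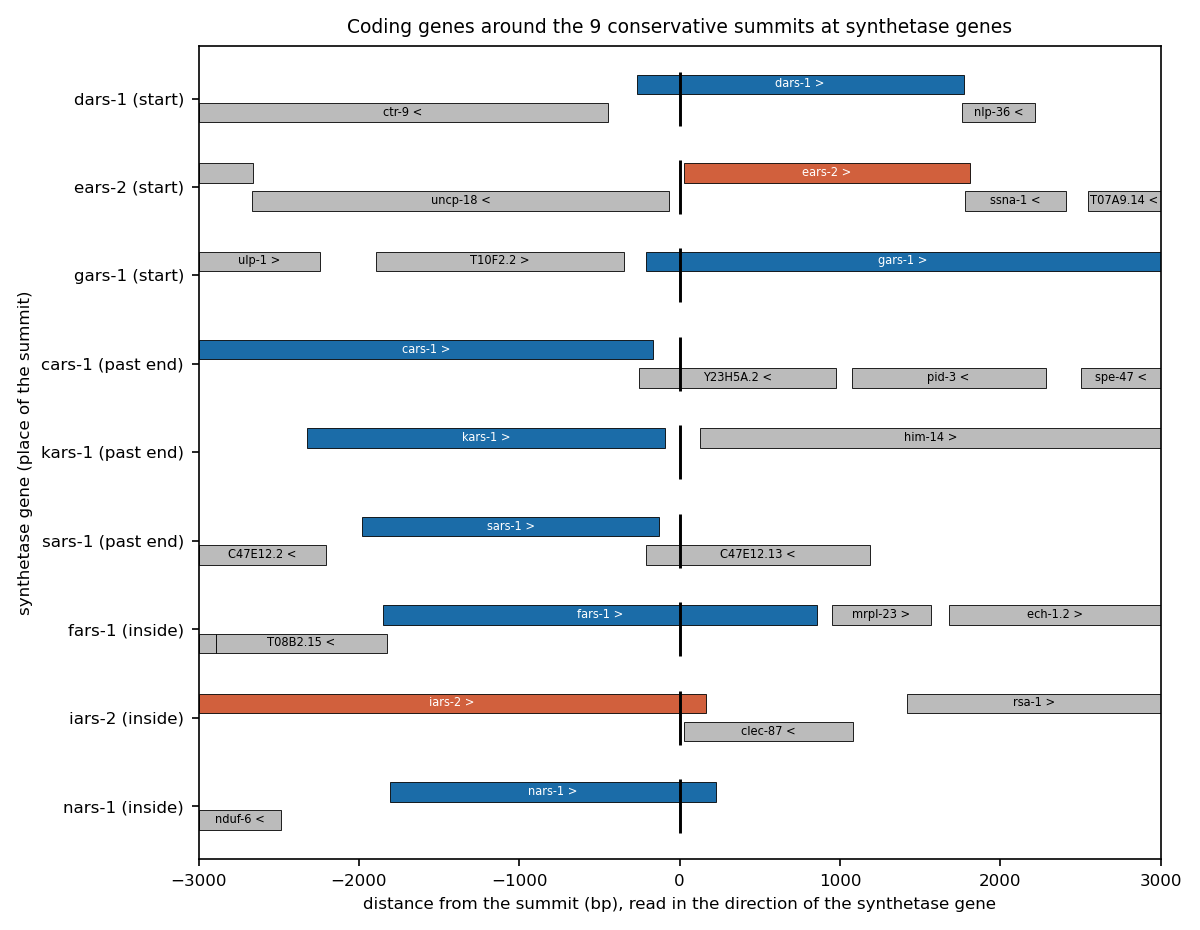
Coding genes (boxes) within 3000 bp of the 9 conservative summits (vertical ticks) in or beside synthetase genes, with distance from the summit in bp on the horizontal axis, read in the direction of the synthetase gene. Blue boxes are -1 genes, orange boxes -2 genes and grey boxes other coding genes, with > for the same strand and < for the opposite one. The ears-2 summit sits in the 91 bp gap to uncp-18, the kars-1 summit in the gap before him-14, and the sars-1 and cars-1 summits inside genes that overlap their ends.

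As a group these were modest peaks. Of the 6, 5 had a signal below the conservative list's median of 70.4 (quartiles 56.5 and 97.6), and ears-2 alone lay above it. Replicate 1 had the higher signal in 5 of the 6 and replicate 2 in 1, gars-1. Of the 6, 1 overlapped a thresholded peak of both replicates, 1 of one replicate and 4 of neither. None of the 31 genes lay within 1000 bp of a tRNA gene, so none of these peaks sits beside the genes for the enzymes' own substrates. How many of all coding genes lie that close to a tRNA gene was not counted, so this sets the family apart in no way.

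The distances around the thresholds were as follows. Among genes counted, the farthest start summit was that of dars-1 at 268 bp and the farthest past an end was that of cars-1 at 167 bp. Just outside, the nearest uncounted start summits were at kars-1 (1039 bp) and iars-2 (1096 bp), and the nearest uncounted summits past an end were at aars-2 (704 bp), sars-2 (760 bp), ears-2 (772 bp) and iars-1 (950 bp).

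A further 3 genes held a summit inside the gene, away from both zones. With them 9 of 31 genes (29.0%) had a summit in the body or a zone, against 11.8% of all coding genes. In fars-1, the alpha subunit of the cytosolic phenylalanyl-tRNA synthetase, the peak had a signal of 104.7 and ranked 592. Its summit lay in an intron, 13 bp from the small nucleolar RNA gene T08B2.13 and over the noncoding RNA gene T08B2.14. Replicate 1 gave it a signal of 40.0 and replicate 2 one of 55.9, and only replicate 2's thresholded list held it.

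The iars-2 summit lay in the 3′ UTR of this isoleucyl-tRNA synthetase gene and 26 bp past the end of clec-87, a C-type lectin gene that converges on it. It had a signal of 114 and ranked 481, with 37.2 in replicate 1 and 79.0 in replicate 2, and was thresholded in replicate 2 alone. The nars-1 summit lay in the coding sequence of the asparaginyl-tRNA synthetase gene, 225 bp before its end. Its signal was 42.2 at rank 2486, with 30.9 in replicate 1 and 24.2 in replicate 2, and neither replicate's thresholded list held it. The strongest peaks inside the gene set thus lay at ears-2, iars-2 and fars-1.

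Weaker regions were read from the ranked list of the same replicate comparison, which holds 87350 regions before any threshold. There 28 of the 31 genes (90.3%) had a region with its summit within 500 bp of a start, against 60.8% of all coding genes. Past the end 24 of 31 (77.4%) had one, against 33.6% of all coding genes. The genes with no start region were aars-2, wars-1 and yars-1. With a gene without a region taken as 0, the median best start signal was 36.6 over the synthetase genes (quartiles 26.7 and 53.2) and 15.3 over all coding genes. Among genes that had a region the medians were 37.1 over the synthetase genes and 27.3 over all coding genes. Past the end the medians among genes with a region were 35.6 over the synthetase genes and 26.1 over all coding genes.

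Most of the family thus sat in the upper part of the distribution at starts without reaching its top. All 28 genes with a region lay above the median of all coding genes (15.3), in which genes without a region count as 0. The lowest of the 28, at 21.1, lay below the median of 27.3 among coding genes that had a region. With the same zeros, 21 of the 31 lay above the upper quartile of all coding genes (30.7) and 11 of the 31 above the limit of its upper 10% (47.2). All coding genes include those that are silent in young adults. Transcript levels were not measured, so the part played by expression was not tested.

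**Figure D2:**
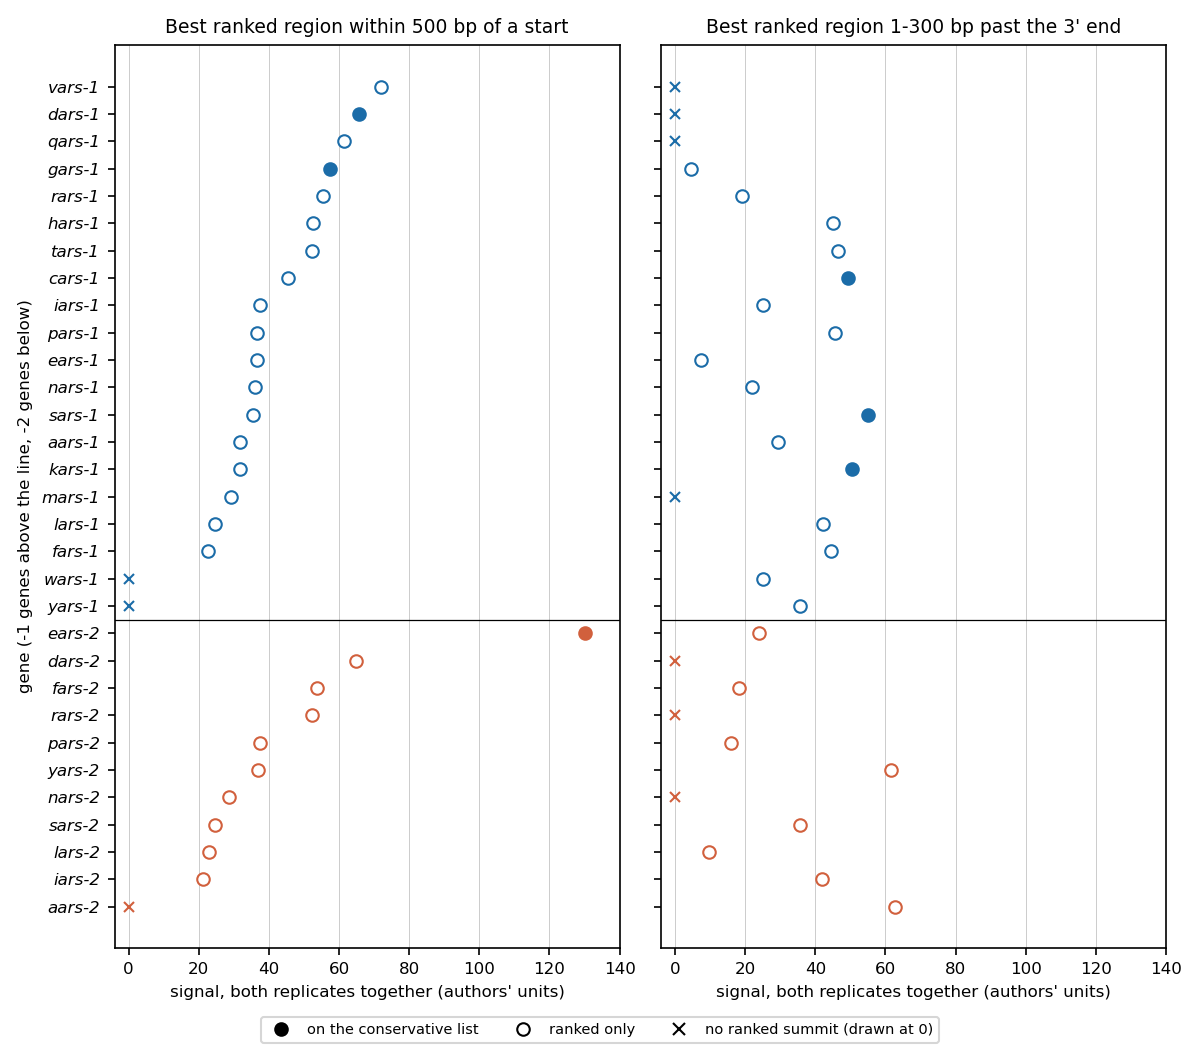
Best ranked signal of each synthetase gene with both replicates together, within 500 bp of a start (left) and 1 to 300 bp past the 3′ end (right), on a linear axis in the authors' units. Filled points are on the conservative list, open points are in the ranked list only, and crosses at 0 mark genes with no ranked summit there. At starts ears-2 stands alone at 130 and the others with a region lie between 21.1 and 72.1.

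Several ranked regions were as strong as the thresholded ones. The highest was at vars-1, a valyl-tRNA synthetase gene, at V:8031173-8031492. Its signal was 72.1 with both replicates together, and 27.8 in replicate 1 and 33.5 in replicate 2, above the signals at dars-1 and gars-1. Its score was only 316, so the series-wide lists left it out, while replicate 2's own thresholded list held it. The summit lay 78 bp upstream of vars-1 and 119 bp past the end of oma-2, a CCCH zinc finger gene of the oocyte on the same strand.

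At dars-2, the aspartyl enzyme's -2 gene, the region at V:12048740-12049059 had a signal of 64.8 with both replicates together, and 31.5 in replicate 1 and 22.4 in replicate 2. Its score of 795 fell short of 830, the lowest on the conservative list, but the other series-wide thresholded list held it. Its summit was 155 bp into the gene, in coding sequence, and 269 bp past the end of F10C2.5. At qars-1, the glutaminyl-tRNA synthetase gene, the region at IV:15010821-15011140 had its summit exactly at one of the 4 annotated starts. That start is an internal one. The summit, at position 15010981, lay in coding sequence, and the gene, on the minus strand, has its outermost start at position 15013183. The qars-1 signal was 61.4, with 30.9 in replicate 1 and 23.4 in replicate 2, and its score of 824 was just under the lowest conservative score.

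The rars-1 region (arginine), at III:4916897-4917216, had a signal of 55.5, with 24.5 in replicate 1 and 38.4 in replicate 2. Its summit lay in coding sequence, 50 bp downstream of the nearest of the gene's 4 annotated starts. It was also 186 bp past the end of rpb-8, an RNA polymerase subunit gene. The other series-wide thresholded list held the region, with a score of 813 in the ranked list. At fars-2 (phenylalanine) the region at V:19907731-19908050 had a signal of 53.8, with 23.4 in replicate 1 and 19.6 in replicate 2, and a score of 537. Its summit lay between genes, 457 bp upstream of a start and 195 bp past the end of chk-2, a kinase gene of meiosis.

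Past the ends, the highest signals lay outside the conservative list too. The region at aars-2, at I:3986559-3986878, had a signal of 62.6 with both replicates together, and 21.8 in replicate 1 and 38.0 in replicate 2. Its summit was 138 bp past the end, its score was 650, and replicate 2's own thresholded list held it. At yars-2 the signal past the end was 61.7, with 38.1 in replicate 1 and 20.3 in replicate 2 and a score of 761. Both exceed the 49.3 to 55.1 of the 3 thresholded peaks past ends, so the conservative list did not follow signal alone. The list selects on the agreement of ranks between replicates.

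The replicates gave different values in their own lists. Each list has its own scale, so these values do not show a difference in binding. In the replicates' own ranked lists 25 of the 31 genes had a start region in both. Replicate 1 was the higher in 17 of these, with a median ratio of replicate 1 to replicate 2 of 1.31 (range 0.488 to 2.03). Over all coding genes 7108 had a start region in both, and replicate 1 was the higher in 66.6% of them, with a median ratio of 1.20. The higher values of replicate 1 were thus seen over all coding genes as well. The gene furthest on the other side was cars-1, with 15.3 in replicate 1 and 31.4 in replicate 2.

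**Figure D3:**
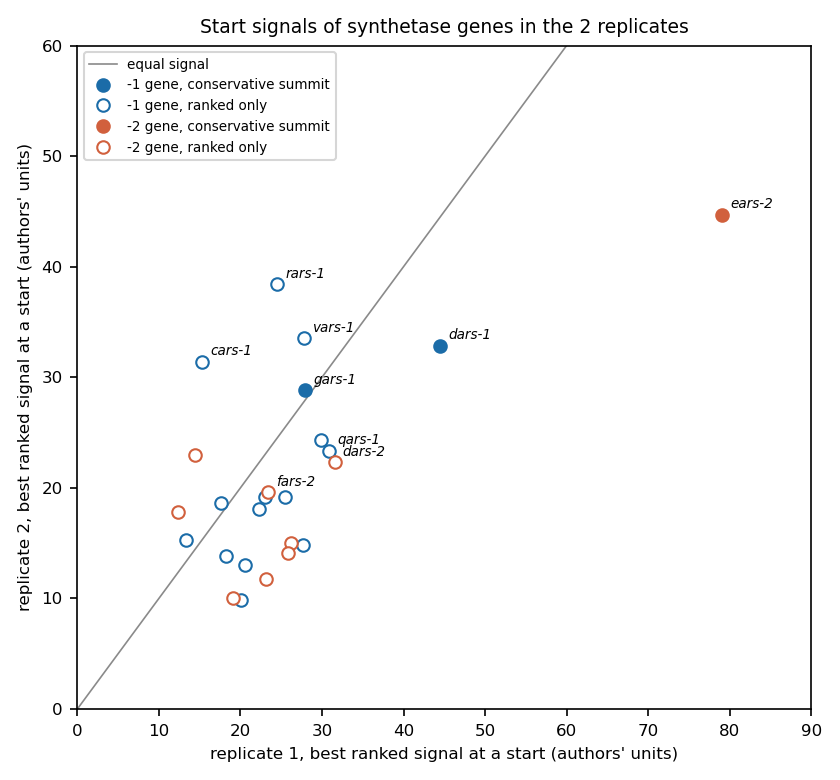
Best start signal of the 25 synthetase genes with a region in both replicates' own ranked lists, replicate 1 on the horizontal axis and replicate 2 on the vertical axis, both linear in the authors' units, with the line of equal signal. Blue points are -1 genes and orange points -2 genes, filled where the gene has a conservative start summit. Most genes lie below the line, and ears-2 (79.0 and 44.7) is the highest of the 25 in both replicates.

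By suffix, 5 of the 20 -1 genes (25%) and 1 of the 11 -2 genes (9.09%) had a conservative summit in either zone, against 9.48% of all coding genes. At starts the shares were 2 of 20 (10%) for -1 genes and 1 of 11 (9.09%) for -2 genes, against 6.5% of all coding genes. Past the ends they were 3 of 20 (15.0%) for -1 genes and 0 of 11 for -2 genes, against 4.55%. With the gene body included they were 7 of 20 (35.0%) for -1 genes and 2 of 11 (18.2%) for -2 genes, against 11.8%. The order in either zone held in some lists and was reversed in others, and no test was made over genes. The other series-wide thresholded list gave 5 of 20 -1 genes (25%) and 2 of 11 -2 genes (18.2%). Peaks of score 1000 alone gave 2 of 20 -1 genes (10%) and 1 of 11 -2 genes (9.09%). With narrower or wider zones the counts were 4 to 5 among the 20 -1 genes and 1 among the 11 -2 genes. Replicate 1's own thresholded list gave 1 of 20 -1 genes and 1 of 11 -2 genes, and replicate 2's gave 1 of 20 -1 genes and 2 of 11 -2 genes. The upper 50% of conservative peaks by signal left 0 of 20 -1 genes and 1 of 11 -2 genes.

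At starts the medians of the suffixes were close with both replicates together. The median best start signal was 36.5 over the -1 genes and 36.9 over the -2 genes. The replicates' own lists gave opposite orders: 21.7 over -1 genes and 23.1 over -2 genes in replicate 1, and 18.4 over -1 genes and 15.0 over -2 genes in replicate 2. Above the upper quartile of all coding genes lay 15 of the 20 -1 genes and 6 of the 11 -2 genes, and above the limit of the upper 10% lay 7 -1 genes and 4 -2 genes. Past the ends the medians, with genes without a region at 0, were 27.3 over -1 genes and 18.3 over -2 genes.

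**Figure D4:**
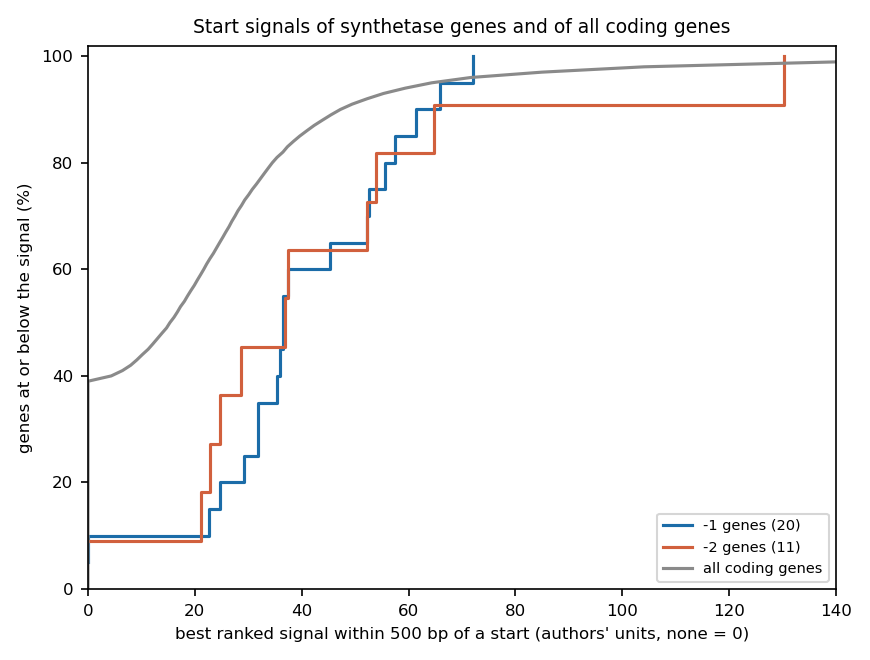
Percentage of genes (vertical axis) whose best ranked start signal with both replicates together was at or below the value on the horizontal axis (linear, authors' units, genes without a region at 0), for -1 genes, -2 genes and all coding genes. The curves of the -1 and -2 genes cross repeatedly around their medians of 36.5 and 36.9, to the right of the all coding genes' median of 15.3, while at the top all coding genes run beyond both.

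The 11 amino acids with both genes allow the closest comparison. With both replicates together the start signal was higher at the -1 gene in 7 pairs and at the -2 gene in 4. In replicate 1 alone the -1 gene was higher in 4 pairs and the -2 gene in 7, and in replicate 2 alone each was higher in 5, with neither alanine gene having a region. The same gene led in both replicates in 6 pairs: the -1 gene for aspartate and asparagine, and the -2 gene for glutamate, phenylalanine, leucine and tyrosine. For leucine the pooled list gave the opposite order, with 24.7 at lars-1 and 22.8 at lars-2.

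The widest gap between partners was for glutamate. The start signal of ears-1 was 36.5 with both replicates together (27.7 in replicate 1 and 14.8 in replicate 2), against 130 at ears-2 (79.0 and 44.7 in the same replicates). The closest strong pair was that of aspartate, with 65.8 at dars-1 and 64.8 at dars-2, of which only dars-1 was on the conservative list. Tyrosine had no start region at yars-1 and 36.9 at yars-2 (23.1 in replicate 1 and 11.8 in replicate 2). Among the -1 genes, 3 of the 9 with no -2 gene by name (cars-1, gars-1 and kars-1) had a conservative summit in a zone. Of the 11 with one, 2 did (dars-1 and sars-1), against 9.48% of all coding genes. The 9 include vars-1 and wars-1. Outside the naming rule, glp-4 has a valine ligase as its product, and the products of prx-10 include a mitochondrial tryptophan ligase.

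Grouped by the catalytic class, 2 of the 15 class I genes (13.3%; cars-1 and ears-2) and 4 of the 16 class II genes (25%; dars-1, gars-1, kars-1 and sars-1) had a zone summit, against 9.48% of all coding genes. The median start signals were 36.9 over class I and 36.3 over class II.

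Neighbouring genes were counted where the gap or overlap was short. Of the 20 -1 genes 4, and of the 11 -2 genes 6, began within 250 bp of the end of an upstream coding gene on the same strand, as genes in operons often do, against 12.2% of all coding genes. Of these 10, 1 (gars-1) had a conservative summit in a zone, near the 9.48% of all coding genes. A divergent coding neighbour within 500 bp upstream was found for 6 of the 20 -1 genes and for 1 of the 11 -2 genes (ears-2), against 9.63% of all coding genes. Of these 7, 2 (dars-1 and ears-2) had a start summit, against 6.5% of all coding genes, divergent or not. The best ranked start region lay upstream of the start in 14 of 28 genes, 8 of 18 among the -1 genes and 6 of 10 among the -2 genes. The share over all coding genes was not counted, so these counts are not read as a trait of the family.

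The promoters, taken as 250 bp before to 50 bp after each start, were searched on both strands for 9 short strings. TTTCAG, the end of the worm's splice acceptor consensus, was present in 20 of 31 promoters (64.5%), against 51.7% of all coding promoters. TATAAA was present in 8 (25.8%), against 37.9% of all coding promoters, and GAGAGA in 7 (22.6%), against 21.8%. The B-box string of tRNA genes, GTTCGANNC, was found in none, against 1.58% of all coding promoters. Within 50 bp of the 6 zone summits, cars-1 held CACGTG and TTTCAG, which 12.3% of conservative windows hold, and dars-1 held TATAAA. The strings GAGAGA and GTTCGANNC were in none of the 6 windows. Neither was the GATAAG string of GATA factors, nor the TGATGCAA string. The remaining strings, CTGCGTC and the GC-rich string GGGCGG, were also in none.

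Other genes listed for tRNA charging, use and upkeep give a frame for these values. The list also holds nsun-1, nsun-4 and nsun-5, whose products are named rRNA methyltransferases, and homt-1, named a protein methyltransferase. They are included in the counts. Of 33 names listed, 30 were found in the annotation; 10 (33.3%) had a conservative start summit, against 6.5% of all coding genes, and 7 (23.3%) one past the end, against 4.55%. In either zone 14 (46.7%) had one, against 9.48% of all coding genes. Their median start signal was 40.1, against 15.3 over all coding genes. The cytosolic elongation factors bring charged tRNA to the ribosome and move it through. The start signal was 258 at eef-2 (117 in replicate 1 and 139 in replicate 2), 191 at eef-1G (113 and 77.3), 110 at eef-1A.1 (57.5 and 64.6) and 105 at eef-1B.1. The eef-1B.2 gene instead had its peak past the end, with 137 (81.0 in replicate 1 and 52.9 in replicate 2). At eef-1A.1 a conservative summit past the end had a signal of 167 (91.5 in replicate 1 and 51.9 in replicate 2). The start signals at eef-2 and eef-1G exceed that of ears-2, as do the signals past the end at eef-1A.1 and eef-1B.2. The start signals at eef-1A.1 and eef-1B.1 exceed every synthetase start signal but that of ears-2. The start signal of eef-1A.2 was lower, at 86.5 (51.2 in replicate 1 and 26.4 in replicate 2).

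Of the mitochondrial translation factors tufm-1, tufm-2, tsfm-1 and gfm-1, none had a summit in either zone, where 9.48% of all coding genes had one. So few genes cannot be told apart from that share. The ranked start signal was 44.1 at tufm-2, 41.7 at tufm-1 and 40.0 at gfm-1. At tsfm-1 there was no start region in the pooled ranked list, and 21.8 in replicate 2's own list. Among the genes that process or modify tRNA, mtcu-2, the homolog of the mitochondrial tRNA modifier MTO1, had a start signal of 226 (120 in replicate 1 and 94.6 in replicate 2). The start signal was 85.5 at pus-1, a pseudouridine synthase gene, and 82.5 at hoe-1, the gene for the enzyme that trims tRNA 3′ ends. Another, tut-1, had a conservative summit past its end with a signal of 50.6. No conservative summit lay in either zone of elpc-1, elpc-2, elpc-3, elpc-4, nsun-2, alkb-8, mtcu-1 or rtcb-1, against 9.48% of all coding genes. Their highest start signal was 43.5, at elpc-2, and nsun-2 had no start region in the pooled ranked list. In the pathway that senses uncharged tRNA, gcn-1 had a start signal of 62.2 on the conservative list and atf-4 a signal of 70.1 past its end. The kinase gene gcn-2 of the same pathway had no conservative summit in either zone, and its start signal was 9.72. Another listed gene with a peak past its end, homt-1 (160), has a protein methyltransferase as its annotated product.

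The naming rule leaves out some synthetase genes. By their RefSeq products 4 further genes were tRNA ligases or synthetases, and fars-3 among them was also counted in the list above. A conservative start summit was present at 2 of the 4, against 6.5% of all coding genes. Of these fars-3, the beta subunit of the phenylalanyl-tRNA synthetase, had a conservative start summit with a signal of 91.0 (50.4 in replicate 1 and 38.9 in replicate 2), while its partner fars-1 had no more than 22.7 at a start. K03B4.1, annotated as a seryl-tRNA synthetase, had a conservative start summit with a start signal of 63.2. At glp-4, a valyl-tRNA synthetase gene of germ line growth, the best ranked start signal was 16.9, against 72.1 at vars-1. The products of prx-10 include a mitochondrial tryptophan--tRNA ligase. It had no start region in the pooled ranked list, and 14.4 in replicate 2's own list.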

How the data were processed

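The deposited files used here are 8 peak lists on ce11, from 2 replicates of 1 group. Per the deposited text descriptions, filtered reads and a control went into every list, and an undescribed input into the thresholded ones. The aligner and caller, like any version, were not given in the sources used here. Each signal is the authors' value per peak, with no stated scale or correction for depth. The score is the authors' IDR on a whole-number scale up to 1000. No read counts were used, so depth is unknown and no interval is given.

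Summits were placed on the Ensembl 115 annotation of WBcel235 with Python 3.11.15 and pandas 2.3.3, after the placement was tested on simulated summits. The 12 coding genes of the mitochondrial genome were left out. Replicate values are the best signal in each replicate's own ranked list. Every gene with a conservative summit in a zone is named, with the 5 highest others at starts and any thresholded in 1 replicate; other genes, the class and partner comparisons and the sequences past ends were chosen after values were seen. The genes, lists and windows were chosen with earlier results of these data known. No test was made, since there is 1 group and genes are not replicates.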

Additional observations from a re-analysis of the deposited data

How the results depend on the processing

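Of 82 values recomputed under alternatives, 54 kept within 1.5 times (counts) or the spread between replicates (medians), and 28 moved, 14 of them in the list of 1 replicate alone. From each replicate's own thresholded list the counts were 1 to 2 genes at starts, 1 past ends, 2 to 3 in either zone, 1 among -1 genes and 1 to 2 among -2 genes. Replicate 2's list held ears-2 and vars-1 at starts and aars-2 past the end, and replicate 1's held ears-2 and sars-1. With peaks of score 1000 alone, 1 gene was left past ends, 3 in either zone and 2 among -1 genes. With the upper 50% of peaks by signal, 1 gene was left at starts, 0 past ends, 1 in either zone and 0 among -1 genes. The other series-wide thresholded list gave 2 -2 genes in place of 1. Of the alternatives chosen after seeing the data, counting upstream summits alone gave 1 gene at starts, and adding the 4 relatives by product gave 5.

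The median start signals in the replicates' own ranked lists, which have their own scale, were 17.9 to 22.3 over all synthetase genes, 18.4 to 21.7 over -1 genes and 15.0 to 23.1 over -2 genes. Within 250 bp of a start they were 28.7, 33.9 and 24.8. Grouped by product name, the 4 mitochondrial genes had a median of 44.8. No paired analysis was possible because there is 1 group and no test. The cause of these changes was not tested. The absence of a peak says only that none was listed at an unknown depth.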
